A study of Mus musculus with 6 samples.

Results

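Transcripts of 10 endothelial genes were followed in whole fibrotic mouse liver. The 10 genes were chosen by symbol among the 41388 Ensembl genes of the deposited count table, as Stab1, Stab2, Lyve1, Clec4g, Oit3, Pecam1, Cdh5, Kdr, Vwf and Plvap. All 10 were found, each at 1 identifier, and all 10 passed the filter on low counts. Livers were of BALB/c mice in which carbon tetrachloride (CCl4), a liver toxin, had been given for 5 weeks to cause fibrosis. The AL/NP group (3 libraries) also received nanoparticles carrying alendronate, a bisphosphonate, at 4 mg/kg, with 2 injections per week over the last 2 weeks. The control group (3 libraries) had the same CCl4 fibrosis and is called untreated in the sample titles. The series title names liver macrophages as the target of the particles. The labels give no age or sex, and they do not say whether controls received injections. No healthy liver and no drug-free particle was part of the samples, so alendronate, its carrier and the injections cannot be told apart. The labels number the replicates without saying outright that each is a separate animal, so p-values measure the spread between these samples.

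The liver sinusoid is lined by a special endothelium that is perforated by fenestrae and lacks a continuous basement membrane. Its cells clear modified proteins, hyaluronan and immune complexes from blood through scavenger receptors such as those encoded by Stab1 and Stab2. In fibrosis this lining can lose its fenestrae and take on features of ordinary capillaries, a process called capillarisation. Larger liver vessels carry a continuous endothelium that shares junction proteins and growth factor receptors with the sinusoid. The scavenger and lectin genes are therefore described first, then the genes shared by all endothelium, then Vwf and Plvap. Vwf is linked to larger vessels, and Plvap to vessels other than mature sinusoids and to capillarisation. In bulk tissue, fewer cells of a type and less RNA per cell cannot be told apart.

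The upstream windows of 3 members are shown: those of 2 sinusoidal genes whose levels stayed within the spread between replicates, Stab2 and Clec4g, and that of Kdr, the member with the lowest fold change. Each window runs from 250 bases before to 50 bases after the RefSeq start, 5′ to 3′ on the gene's strand (GRCm38.p6). Capitals mark GGAA or its reverse complement TTCC, the core bound by ETS factors, the family of the endothelial regulators Erg and Fli1. The windows are those of Stab2 (chr10:87007893-87008192, minus strand), Clec4g (chr8:3720602-3720901, minus strand) and Kdr (chr5:75978406-75978705, minus strand).
Stab2: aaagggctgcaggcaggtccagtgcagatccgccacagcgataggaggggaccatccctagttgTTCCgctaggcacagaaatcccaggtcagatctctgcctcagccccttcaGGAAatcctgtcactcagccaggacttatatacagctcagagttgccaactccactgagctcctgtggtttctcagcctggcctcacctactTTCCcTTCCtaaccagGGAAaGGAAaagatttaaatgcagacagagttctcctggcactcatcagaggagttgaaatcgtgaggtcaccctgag
Clec4g: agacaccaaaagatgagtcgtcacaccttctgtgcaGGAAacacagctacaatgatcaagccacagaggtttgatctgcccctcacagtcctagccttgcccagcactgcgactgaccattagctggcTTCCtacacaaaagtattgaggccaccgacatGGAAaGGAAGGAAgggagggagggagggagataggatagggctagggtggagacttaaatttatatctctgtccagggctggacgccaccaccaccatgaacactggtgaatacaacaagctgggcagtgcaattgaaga
Kdr: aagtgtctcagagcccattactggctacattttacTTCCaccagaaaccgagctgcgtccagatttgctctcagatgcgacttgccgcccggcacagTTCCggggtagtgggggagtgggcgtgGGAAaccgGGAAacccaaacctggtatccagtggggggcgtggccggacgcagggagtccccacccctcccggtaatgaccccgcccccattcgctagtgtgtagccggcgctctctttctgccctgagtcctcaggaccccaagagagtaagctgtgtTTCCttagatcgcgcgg
The core occurs 6 times in the Stab2 window and 5 times in each of the Clec4g and Kdr windows, counted on both strands with overlaps allowed. It occurs at least once in 96% of 32851 mouse windows of this length, with a median of 3 and a 90th percentile of 6. The core GATA or TATC, read by factors such as Gata4, occurs 1, 3 and 1 times in these windows, and at least once in 57.9% of all windows. These matches describe the letters only. RefSeq windows were at hand for 4 of the 10 members.

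Each library held between 30554483 and 39838428 counts, and the members together took between 0.0188% and 0.0367% of them. Single members had from 118 to 3095 counts per library, so counting error alone was at most 9.21%, that of Lyve1. A count of 3 corresponds to 0.0753 to 0.0982 CPM (library-scaled counts) per library, far under every member, and this covers counting error only. Mitochondrially encoded genes took 26.7% of counts in control replicate 3, against 12.0% to 19.8% in the other 5 libraries. That library also had the lowest TMM factor (trimmed mean of M-values, the scaling between libraries), 0.809 against 0.937 to 1.13. CPM values below are TMM-scaled. Each fold change sets AL/NP over control on the log2 scale and comes from edgeR's quasi-likelihood test, with p-values adjusted over all 15939 genes tested and a threshold of 0.05.

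Per base of exon, Plvap was the most abundant member and Vwf the least. Plvap averaged 25.8 CPM per kilobase of exon over the 6 libraries (SD 8.03), Clec4g 16.7 (SD 2.88) and Stab1 7.48 (SD 0.955). The order Plvap, Clec4g, Stab1, Oit3 held in 6 of 6 libraries for each neighbouring pair. Oit3 at 4.60 (SD 1.40), Stab2 at 3.53 (SD 0.448) and Cdh5 at 3.30 (SD 0.708) did not keep their order, which held in 4 of 6 libraries for both neighbouring pairs. Cdh5 was above Pecam1 in 6 of 6. Pecam1 at 1.86 (SD 0.425), Lyve1 at 1.77 (SD 0.41) and Kdr at 1.69 (SD 0.234) could not be ordered, each pair holding in 3 of 6. Kdr was above Vwf, at 0.519 (SD 0.143), in 6 of 6 libraries.

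Plvap had the largest difference between the groups, and the sinusoidal scavenger genes stayed within the spread between replicates. No member passed the threshold in edgeR, where 13 of all genes did, 0.0816% of those tested. At an unadjusted p under 0.05 there was 1 member, Plvap, higher with AL/NP, where 9.37% of all genes were higher and 10.3% lower at that level. DESeq2 called 1 of the 10, again Plvap, against 5.07% of all genes it tested. The groups did not overlap in 1 of 10 members as higher, against 14.5% of all genes, and in 0 as lower, against 15.0%. The log2 fold change was above 0 in 7 of 10 members and in 50.0% of all genes. These counts over 10 genes are description only. The median log2 fold change of the members was 0.21, with a median of -0.00025 over all genes. That median was 0.39 without control replicate 2, and 0.12, 0.13 and 0.13 without control replicate 1, AL/NP replicate 3 and control replicate 3.

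**Figure D1:**
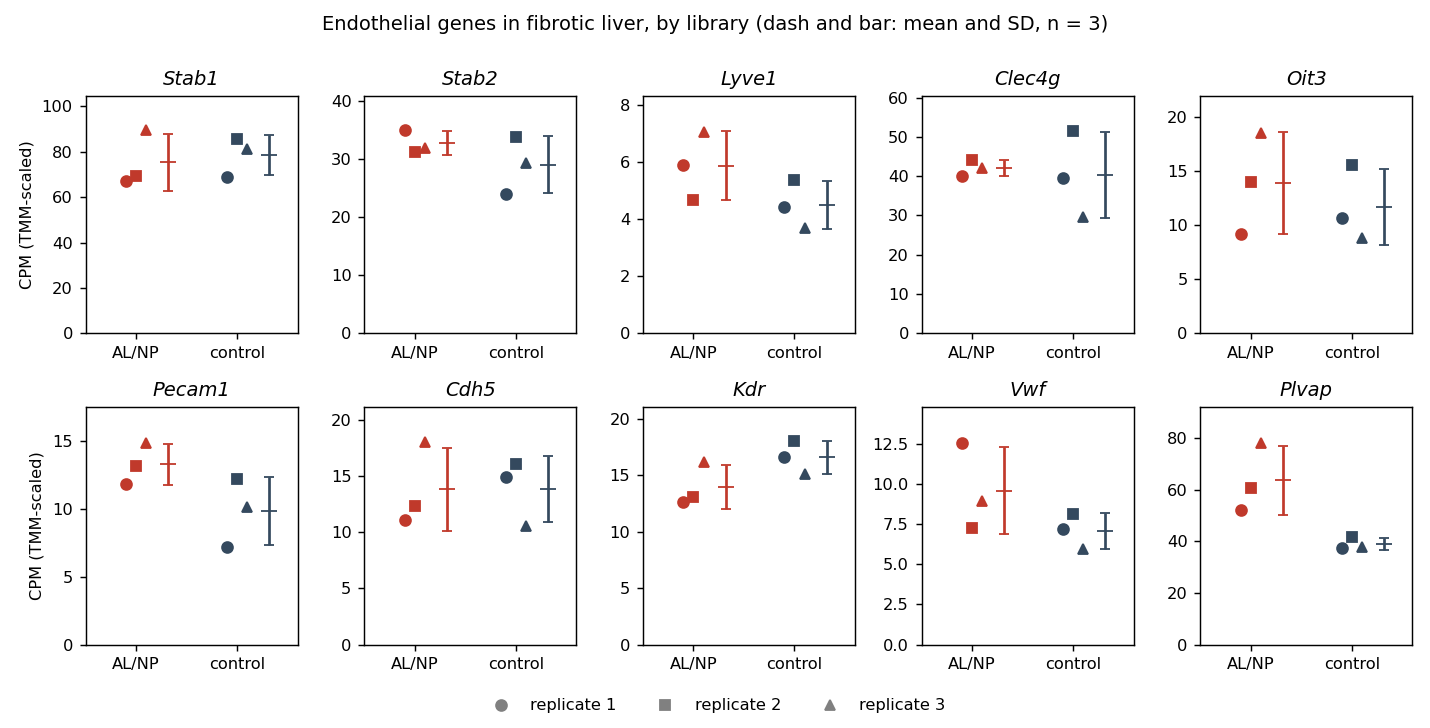
TMM-scaled CPM of the 10 endothelial genes in each library, on axes that start at 0, with AL/NP left of control, marker shape giving the replicate number, and dash and bar the mean and SD (n = 3). Only the Plvap panel has all 3 AL/NP libraries above all 3 controls.

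Stab1 (ENSMUSG00000042286, chromosome 14, 31139013 to 31168641, minus strand) encodes stabilin-1, a scavenger receptor of sinusoidal endothelium that some macrophages also carry. It had 67.0, 69.2 and 89.7 CPM in AL/NP livers, against 68.8, 85.5 and 81.4 CPM in control livers. AL/NP replicate 3 was the highest of all and the groups overlapped. The log2 fold change was -0.06 (SE 0.170, 95% interval -0.45 to 0.33, adjusted p = 0.864, edgeR). Scaled by library totals alone it was 0.091, in a fit whose median over all genes was 0.13. Leaving out AL/NP replicate 1 gave 0.017. An opposite-strand neighbour, Nt5dc2, shares 112 exon bases and had 8.54 counts per 100 of Stab1, and the strand setting of the counting is not given in the sources used here.

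Stab2 (ENSMUSG00000035459, chromosome 10, 86841198 to 87008025, minus strand) encodes stabilin-2, the main hyaluronan clearance receptor of the sinusoid. It had 35.0, 31.2 and 31.9 CPM in AL/NP livers, against 24.0, 33.8 and 29.4 CPM in control livers. AL/NP livers lay close together and control replicate 1 was the lowest. The log2 fold change was 0.17 (SE 0.160, interval -0.19 to 0.53, adjusted p = 0.556), which leaves changes above 1.45-fold outside the interval. It was 0.051 without control replicate 1 and 0.29 without control replicate 2, past the threshold in neither. The ratio of Stab1 to Stab2 counts, which no scaling touches, was 1.91, 2.21 and 2.81 in AL/NP livers and 2.87, 2.53 and 2.77 in control livers.

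Clec4g (ENSMUSG00000074491, chromosome 8, 3707064 to 3720651, minus strand) encodes LSECtin, a C-type lectin of liver and lymph node sinusoidal endothelium. It had 40.1, 44.1 and 42.1 CPM in AL/NP livers, against 39.6, 51.5 and 29.7 CPM in control livers. The AL/NP values all lay inside the range of the controls. With a log2 fold change of 0.06 it did not differ detectably (SE 0.1996, interval -0.39 to 0.52, adjusted p = 0.877). It was -0.12 without control replicate 3, the lowest library.

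Lyve1 (ENSMUSG00000030787, chromosome 7, 110850607 to 110863239, minus strand) encodes a hyaluronan receptor of lymphatic and sinusoidal endothelium that some macrophages also carry. It was the member with the fewest counts, with 5.87, 4.65 and 7.05 CPM in AL/NP livers, against 4.42, 5.36 and 3.67 CPM in control livers. The groups overlapped through AL/NP replicate 2 and control replicate 2. For Lyve1 the log2 fold change was 0.38 (SE 0.238, interval -0.16 to 0.93, adjusted p = 0.381), and it was 0.23 without AL/NP replicate 3.

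Oit3 (ENSMUSG00000009654, chromosome 10, 59422958 to 59441778, minus strand) encodes a secreted zona pellucida domain protein and is used as a sinusoidal endothelial marker. It had 9.21, 13.98 and 18.6 CPM in AL/NP livers, against 10.7, 15.6 and 8.82 CPM in control livers. The 2 groups spread over overlapping ranges. For Oit3 the log2 fold change was 0.25 (SE 0.288, interval -0.40 to 0.91, adjusted p = 0.640), and it was -0.013 without AL/NP replicate 3. The median log2 fold change over the 5 sinusoidal members was 0.17. It was 0.29 without control replicate 2, and 0.064, 0.052 and 0.082 without AL/NP replicate 3, control replicate 1 and control replicate 3.

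Cdh5 (ENSMUSG00000031871, chromosome 8, 104101625 to 104144511, plus strand) encodes VE-cadherin, the adhesion molecule of endothelial junctions. It had 11.1, 12.4 and 18.0 CPM in AL/NP livers, against 15.0, 16.1 and 10.6 CPM in control livers. Replicate 3 was the highest AL/NP library and the lowest control. Cdh5 had a log2 fold change of -0.0023 (SE 0.231, interval -0.53 to 0.52, adjusted p = 0.997), the smallest of the 10, and its sign turned in 5 of 15 alternatives. Differences of up to about 1.44-fold in either direction stayed inside the interval.

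Pecam1 (ENSMUSG00000020717, chromosome 11, 106654217 to 106750628, minus strand) encodes CD31, an adhesion molecule of endothelial contacts that platelets and leukocytes carry as well. It had 11.9, 13.2 and 14.9 CPM in AL/NP livers, against 7.21, 12.2 and 10.2 CPM in control livers. Only AL/NP replicate 1 and control replicate 2 crossed. The log2 fold change was 0.43 (SE 0.210, interval -0.05 to 0.91, unadjusted p = 0.0720, adjusted p = 0.287). It was 0.25 without control replicate 1, the lowest library.

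Kdr (ENSMUSG00000062960, chromosome 5, 75932827 to 75978458, minus strand) encodes VEGF receptor 2, the main signalling receptor for Vegfa on endothelium. It had 12.6, 13.0 and 16.2 CPM in AL/NP livers, against 16.6, 18.0 and 15.1 CPM in control livers. AL/NP replicates 1 and 2 lay under every control, and replicate 3 lay among them. Kdr had a log2 fold change of -0.25 (SE 0.158, interval -0.61 to 0.11, adjusted p = 0.391), the lowest of the 10. It stayed below 0 in all 15 alternatives, between -0.37 and -0.11, with 0 calls among them.

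Vwf (ENSMUSG00000001930, chromosome 6, 125546774 to 125686679, plus strand) encodes von Willebrand factor, a blood clotting protein stored by endothelium of larger vessels and by platelets. It had 12.5, 7.27 and 8.94 CPM in AL/NP livers, against 7.18, 8.15 and 5.93 CPM in control livers. AL/NP replicate 1 was the highest, and AL/NP replicate 2 lay among the controls. The log2 fold change was 0.43 (SE 0.234, interval -0.10 to 0.97, adjusted p = 0.324), and it was 0.19 without AL/NP replicate 1. Summed CPM of 8 platelet and megakaryocyte markers was 21.5 in AL/NP replicate 1, 13.4 and 14.6 in the other AL/NP livers, and 8.90, 9.14 and 13.0 in control livers. Itga2b, the platelet integrin subunit, made up most of it, with 18.4 CPM in AL/NP replicate 1. Pf4 had 2.05 CPM in that library, inside the control range of 1.44 to 2.53. Ppbp had 0.556 CPM there, inside the control range of 0.166 to 0.683. Only 3 of the 8 markers passed the filter on low counts. The part of platelet RNA in the Vwf value was not tested.

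Plvap (ENSMUSG00000034845, chromosome 8, 71497765 to 71511752, minus strand) encodes the protein that forms the diaphragms of endothelial fenestrae and caveolae. In liver it is linked to vessels other than mature sinusoids and to capillarisation. Which cells of these livers carried it was not tested. It had 1497, 2210 and 2693 counts in AL/NP livers, against 1303, 1517 and 1217 counts in control livers. On the CPM scale these were 52.0, 60.8 and 78.1 in AL/NP livers and 37.4, 41.9 and 37.8 in control livers. Every AL/NP liver lay above every control, and the SD was 13.3 CPM in the AL/NP group and 2.48 CPM in controls. Plvap had a log2 fold change of 0.71 (SE 0.176, interval 0.31 to 1.10), a ratio of 1.63 (1.24 to 2.15).

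Plvap ranked 395th of 15939 genes by p-value, with an unadjusted p of 0.00320 and an adjusted p of 0.128 in edgeR. DESeq2 gave an adjusted p of 0.0176, and edgeR without a filter on low counts gave 0.0206. Both therefore called Plvap higher, where 844 and 747 genes were called in all. The fold change kept its direction in all 15 alternatives, and adjusted p ranged from 0.0176 to 0.268. The fold change lay between 0.53 without AL/NP replicate 3 and 0.85 when scaled by library totals alone. In that last fit the median over all genes was 0.13. Over the 5 vascular members the median log2 fold change was 0.43, that of Pecam1. Leaving out AL/NP replicate 1 gave 0.19, and leaving out control replicate 1 gave 0.25.

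**Figure D2:**
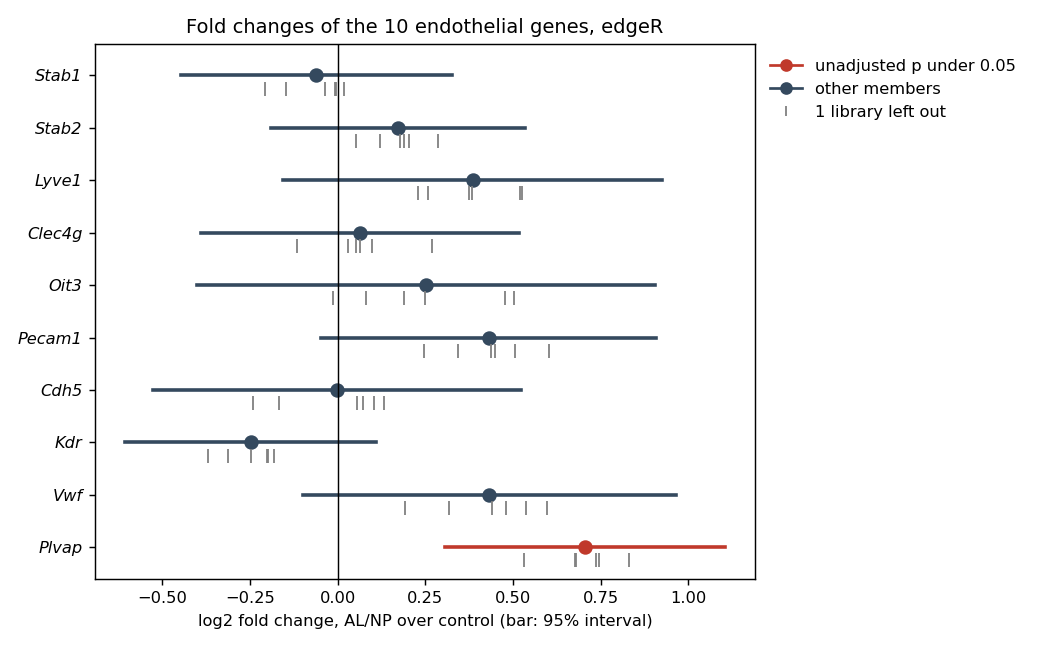
Log2 fold change of each member, AL/NP over control, as a point with its 95% interval from edgeR, and grey ticks for the values with 1 library left out. The interval of Plvap (0.31 to 1.10) alone lies clear of 0, and the ticks of Stab1, Clec4g, Oit3 and Cdh5 fall on both sides of it.

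Ratios of counts within a library, chosen with the members' values known, do not depend on scaling between libraries. Plvap had 4.68, 4.92 and 4.33 counts per count of Cdh5 in AL/NP livers, against 2.50, 2.61 and 3.58 in control livers. The groups did not overlap in this ratio. Plvap had 4.12, 4.66 and 4.82 counts per count of Kdr in AL/NP livers, against 2.25, 2.33 and 2.50 in control livers. The mean ratio was 4.53 ± 0.364 in AL/NP livers and 2.36 ± 0.127 in control livers (SD, n = 3 each). Plvap and Kdr had the highest and lowest fold changes of the members. A gap in their ratio largely follows from that choice and adds no support. Against Stab2, the Plvap ratio was 1.49, 1.95 and 2.45 in AL/NP livers and 1.56, 1.24 and 1.29 in control livers, with AL/NP replicate 1 among the controls.

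Pecam1 had 0.939, 1.01 and 0.918 counts per count of Kdr in AL/NP livers, against 0.434, 0.679 and 0.674 in control livers, with no overlap. Kdr, the member with the lowest fold change, was again the divisor. Lyve1 per Cdh5 was 0.528, 0.376 and 0.391 in AL/NP livers, against 0.296, 0.333 and 0.347 in control livers, also without overlap. The ratios of Stab1, Stab2, Clec4g, Oit3, Pecam1, Kdr and Vwf to Cdh5 overlapped between the groups. Among all genes the groups did not overlap in 14.5% as higher and in 15.0% as lower. No such share was worked out for ratios, here or below, so their lack of overlap is description only.

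**Figure D3:**
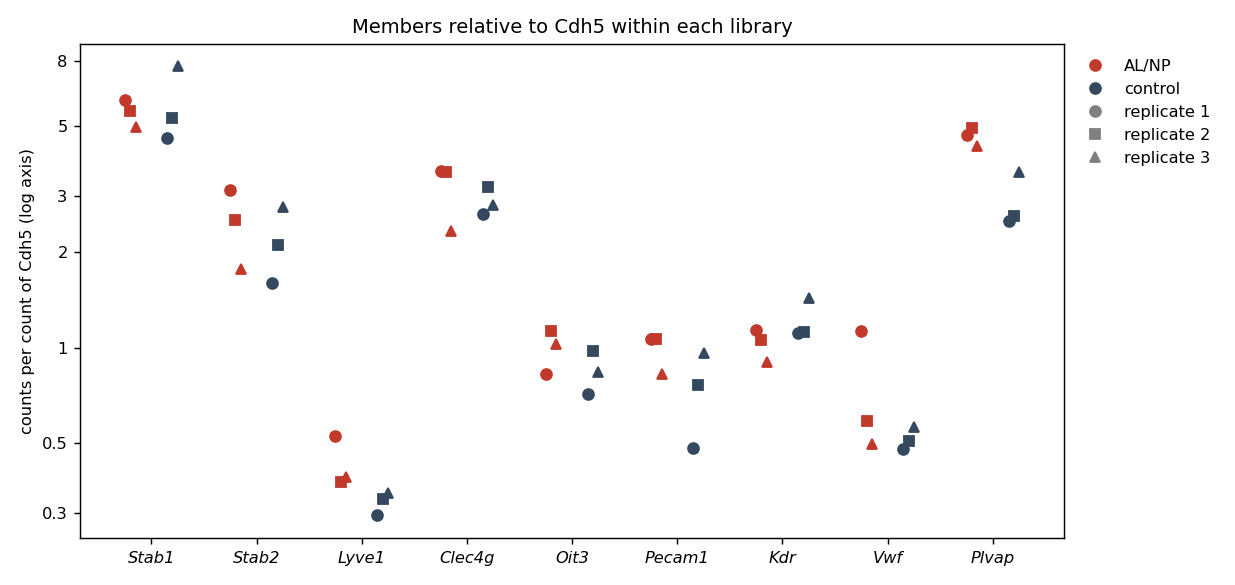
Counts of 9 members per count of Cdh5 in the same library, on a log axis, with AL/NP left of control for each gene and marker shape giving the replicate number. Plvap (4.33 to 4.92 in AL/NP, 2.50 to 3.58 in control) and Lyve1 are the genes whose groups do not overlap.

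Members differed in how closely they varied together over the 6 libraries. The mean z-score of the 10 members (each gene's log2 CPM centred and scaled over the 6 libraries) was -0.059, -0.077 and 0.939 in AL/NP livers and -0.59, 0.57 and -0.78 in control livers. On this average AL/NP replicate 3 and control replicate 2 were high, and control replicates 1 and 3 were low. Lyve1 and Oit3 followed the mean of the other 9 members most closely (Pearson r = 0.846 and 0.833 over 6 libraries). Kdr and Vwf followed it least (r = 0.135 and 0.335). The values were not centred by group, so any group difference is part of these r values. They also describe libraries that share depth and scaling, and no p is given.

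Of 9630 named genes with a mean of at least 5 CPM, those whose profile was most like the members' mean included Ccdc186, Insig2, Epb41l1 and Srm. Their Pearson r over the 6 libraries ran from 0.945 to 0.985 and Spearman rho from 0.943 to 1. Without AL/NP replicate 3 and control replicate 3, the libraries farthest from the median, r ran from 0.927 to 0.991. They were picked among the highest of 9630 values, so no p is given.

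Other genes of sinusoidal endothelium lay on both sides of 0, with none called. Of 16 listed genes 14 were tested, 4 above and 10 below 0, and their median was -0.09. At an unadjusted p under 0.05 there were 0 higher and 2 lower, Bmp2 and Flt4. Bmp2, an angiocrine signal that controls hepcidin in hepatocytes, averaged 7.68 ± 0.106 CPM in AL/NP livers and 10.7 ± 1.12 CPM in control livers (SD, n = 3 each; log2 fold change -0.48, SE 0.156, adjusted p = 0.173, edgeR). Flt4, VEGF receptor 3, averaged 21.3 ± 0.804 CPM in AL/NP livers and 27.5 ± 2.19 CPM in control livers (-0.36, SE 0.132, adjusted p = 0.1999). Ehd3, a membrane recycling protein, was at -0.46 (adjusted p = 0.255) and Dnase1l3, a secreted nuclease, at -0.28 (adjusted p = 0.368). Gata4, the transcription factor that maintains sinusoidal identity in mice, was at -0.07 (SE 0.145).

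All 28 genes of the pan-endothelial list were tested, 16 above and 12 below 0, their median was 0.035 and none was called. At an unadjusted p under 0.05 there was 1, Ecscr, an endothelial surface protein, higher at 0.58 (SE 0.235, adjusted p = 0.232). Icam2, an adhesion molecule, was at 0.55 (adjusted p = 0.278), Cd93 at 0.44 (adjusted p = 0.322) and Ptprb, the phosphatase that acts on VE-cadherin and Tek, at -0.41 (adjusted p = 0.255). The ETS factor genes Erg and Fli1 were at 0.22 (SE 0.2397) and -0.09 (SE 0.2195). The gene 1700066B19Rik overlaps Ecscr on the opposite strand over 62 exon bases, with 14.4 counts per 100 of Ecscr.

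Vegfa, the ligand of Kdr, averaged 106 ± 39.3 CPM in AL/NP livers and 194 ± 33.0 CPM in control livers (SD, n = 3 each), without overlap. Its log2 fold change was -0.88 (SE 0.279, adjusted p = 0.171 in edgeR and 0.0461 in DESeq2), and edgeR without a filter on low counts gave an adjusted p of 0.0340. Flt1, the other Vegfa receptor gene, was at 0.09 (SE 0.175, adjusted p = 0.809). Kdr had 1.73, 1.98 and 1.99 counts per count of Flt1 in AL/NP livers, against 2.25, 2.55 and 2.40 in control livers, with no overlap. Of 18 genes of Vegf and angiopoietin signalling 16 were tested, 8 above and 8 below 0, with a median of -0.030. At an unadjusted p under 0.05 there were 1 higher, Pgf, a ligand of Flt1, at 1.96 (adjusted p = 0.203), and 2 lower, Vegfa and Vegfd, the last a ligand of VEGF receptor 3, at -0.67 (adjusted p = 0.229). Pgf had 3.65, 1.76 and 0.406 CPM in AL/NP livers, against 0.804, 0.331 and 0.342 CPM in control livers, so the groups overlapped. Angptl6, a secreted angiopoietin-like protein, was at -1.04 (adjusted p = 0.261), and its overlap with A230050P20Rik, with 31321 counts against 1517, leaves it uncertain.

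A list of shear-responsive and vasoactive genes, which also holds caveola genes, had the highest median of the endothelial lists. All 16 were tested, 11 above and 5 below 0, and the median was 0.39. None passed in edgeR with the filter on low counts used here, the lowest adjusted p being 0.0783. At an unadjusted p under 0.05 there were 6 higher and 1 lower. DESeq2 called 6, Cavin2 as lower and the others as higher, against 5.07% of all genes it tested. The groups did not overlap in 7 genes as higher and in 1 as lower, against 14.5% and 15.0% of all genes. Klf2, a transcription factor induced by laminar flow, had 13.3, 12.8 and 12.0 CPM in AL/NP livers, against 5.34, 5.99 and 7.39 CPM in control livers. Its log2 fold change was 1.03 (SE 0.175, adjusted p = 0.0783 in edgeR and 1.75e-04 in DESeq2).

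Klf4, a related factor, was at 1.62 (SE 0.318, adjusted p = 0.0970 in edgeR). Thbd, the anticoagulant receptor thrombomodulin, was at 1.43 (SE 0.255, adjusted p = 0.0901). Ace, angiotensin-converting enzyme, was at 1.40 (SE 0.251, adjusted p = 0.0903). DESeq2 called all 3 higher, with adjusted p between 7.87e-05 and 2.20e-04. With no filter beyond 1 count, edgeR called Klf2 (adjusted p = 0.00164), Klf4 (8.31e-05), Thbd (2.64e-04) and Ace (0.00628) higher as well. It also called Klf6, a related factor, higher and Cavin2, a caveola coat protein, lower, which are named here after their values were seen. Klf2, Klf4 and Thbd are also used by leukocytes. Of 12 macrophage markers 10 were above 0 on the log2 fold change scale, as were all 5 neutrophil markers tested, against 50.0% of all genes. The groups did not overlap in 4 of the 12 macrophage markers as higher and in 1 as lower. They did not overlap in 3 neutrophil markers as higher, against 14.5% of all genes. With its main filter edgeR called none of these markers. The 2 macrophage markers below 0 were Cd163, at -1.28 (adjusted p = 0.172, edgeR) without overlap of the groups, and Clec4f, at -0.20. Summed CPM of the 12 Kupffer cell and macrophage markers was 337, 339 and 420 in AL/NP livers, against 199.8, 198.96 and 258 in control livers. Mpeg1 alone had 154, 131 and 138 CPM of that sum in AL/NP livers, against 53.8, 57.9 and 72.1 CPM in control livers. For 6 neutrophil markers the summed CPM was 33.3, 46.7 and 69.2 in AL/NP livers, against 18.4, 17.5 and 32.2 in control livers. The part of these cells in the values of Klf2, Klf4, Thbd, Stab1, Lyve1 and Pecam1 was not tested.

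**Figure D4:**
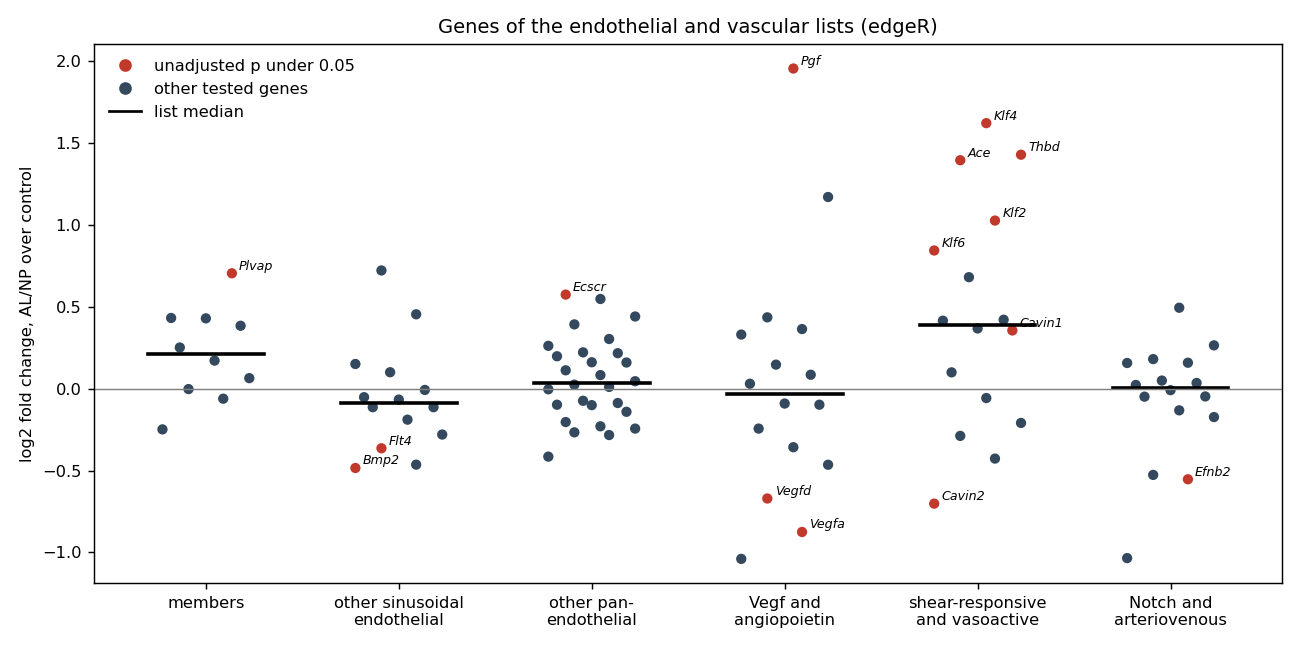
Log2 fold change, AL/NP over control, of every tested gene in the member list and 5 further endothelial lists, with the list median as a black bar and genes at an unadjusted p under 0.05 in red and named. The members have a median of 0.21 and the shear-responsive and vasoactive genes 0.39, while the other lists lie between -0.09 and 0.035.

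Notch and arteriovenous genes set arterial and venous identity. Their median was 0.0071 on the log2 fold change scale, 8 of 16 lay above and 8 below 0, and none was called. At an unadjusted p under 0.05 there was 1, Efnb2, the arterial ephrin ligand, lower at -0.55 (SE 0.243, adjusted p = 0.254). Gja5, an arterial connexin, was at -1.04 (adjusted p = 0.287), on 85 counts in AL/NP livers and 185 in control livers, and it overlaps the far more abundant Gpr89. Unc5b, a guidance receptor, was at 0.49 (adjusted p = 0.337) and Dll4, a Notch ligand, at -0.53 (adjusted p = 0.391).

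Markers of lymphatic vessels, which share Lyve1 and Flt4 with the sinusoid, summed to 80.3, 100.4 and 103 CPM in AL/NP livers, against 134.9, 127 and 135.9 CPM in control livers. Prox1, also made by hepatocytes, Reln, also listed for stellate cells, and Flt4 made up most of that sum. Mmrn1, a lymphatic endothelial protein, was at 1.16 (adjusted p = 0.188) with 84 counts in AL/NP livers and 39 in control livers. Of the other listed markers, Ccl21a was at 0.68 (adjusted p = 0.379, edgeR) and Pdpn at -0.25 (adjusted p = 0.745). Hepatocyte markers summed to 49280 to 57912 CPM in AL/NP livers and 59305 to 77477 CPM in control livers, with Ttr, which carries thyroid hormone, at -0.82 (adjusted p = 0.1397) and Serpina1c, a protease inhibitor, at 0.83 (adjusted p = 0.144). The groups did not overlap in that hepatocyte sum, where 15.0% of all genes were lower without overlap. Alb, the albumin gene, made up most of the sum, with 36814 to 43309 CPM in AL/NP livers and 44091 to 53586 CPM in control livers. Its log2 fold change was -0.23 (adjusted p = 0.602, edgeR). The part of hepatocytes in the members' values was not tested. Among macrophage markers, Mpeg1 was at 1.20 (adjusted p = 0.0579) and Cd5l at 1.264 (adjusted p = 0.0640). S100a9 and S100a8 of neutrophils were at 1.30 (adjusted p = 0.121) and 1.48 (adjusted p = 0.1397). DESeq2 called Mpeg1 (adjusted p = 8.32e-08), Cd5l (2.17e-06), S100a9 (0.00268), S100a8 (0.00598) and Serpina1c (0.00647) higher and Ttr (0.00239) lower, and edgeR called the same 6 with no filter beyond 1 count, with adjusted p between 3.07e-06 and 0.0317.

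The median log2 fold change was -0.35 for stellate and mural markers (2 of 10 tested above 0) and 0.57 for cholangiocyte markers (5 of 5). Myh11 of smooth muscle was at -0.69 (adjusted p = 0.255 in edgeR), Reln of stellate cells at -0.56 (0.355), and Sox9 and Epcam of bile duct cells at 0.60 (0.331) and 0.82 (0.338). It was -0.34 for T, NK and B cell markers (3 of 7), -0.50 for mesothelial markers (1 of 4), -0.31 for lymphatic markers (2 of 6) and 0.73 for platelet markers (3 of 3). Gpm6a and Upk3b of mesothelium were at 0.77 (adjusted p = 0.278 in edgeR) and -0.99 (0.392), Ppbp of platelets at 0.73 (0.471) and Ms4a1 of B cells at -1.14 (0.264). Cd3e, a subunit of the T cell receptor complex, had 16.6, 2.67 and 1.22 CPM in AL/NP livers, against 0.718, 0.773 and 0.497 CPM in control livers. The groups did not overlap, and AL/NP replicate 1 stood far above the others. Its log2 fold change was 3.35 (SE 0.944, adjusted p = 0.150 in edgeR and 0.0364 in DESeq2), and 1.55 without AL/NP replicate 1 (adjusted p = 0.253 in edgeR). Cd3d, a further subunit of that complex, had 0.626, 0.358 and 0.261 CPM in AL/NP livers, against 0.144, 0.193 and 0.186 CPM in control livers. It had too few counts to be tested. Cd8a, another T cell marker of the list, had 0.139 CPM in AL/NP replicate 1, the lowest of the 6 libraries. Cd8a, Nkg7 and Ncr1 were at 0.11, 0.37 and -0.34 on the log2 fold change scale. The part of T cells in the members' values was not tested. Over the 15 lists, members included, edgeR with its main filter called 0 genes. DESeq2 called 1 of 10 members, 1 of 18 listed Vegf and angiopoietin genes and 6 of 16 listed shear-responsive and vasoactive genes. It also called 2 of 12 macrophage, 2 of 8 hepatocyte, 3 of 6 neutrophil and 1 of 8 T, NK and B cell markers listed. Among all genes it tested, it called 5.07%.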

How the data were processed

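Polyadenylated RNA from frozen liver was sequenced in paired ends from strand-marked libraries, per the labels' protocols. The deposited table holds whole-number read counts per Ensembl gene, which the authors did not normalize, as the values show. STAR 2.6.1a, featureCounts and DESeq2 1.26.0 with build GRCm38 are named in the submitters' processing notes; the strand setting and annotation release are not given in the sources used here. Symbols matched 40254 of 41388 identifiers, and coordinates and exon lengths come from GENCODE M21 (GRCm38).

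AL/NP (3 libraries) was compared with control (3 libraries) by edgeR 4.0.16 in R 4.3.3 (filterByExpr with minimum count 10, TMM, robust quasi-likelihood test, Benjamini-Hochberg adjustment over 15939 genes). The test was also run on simulated counts. That outcome is not given here and does not bear on the differences between settings described below. The SE was taken from the fold change and its F statistic, and intervals are 95%. DESeq2 1.42.0, limma-voom (limma 3.58.1), other scalings and filters, a replicate block and each library left out were the alternatives. The members, lists and tests were chosen with earlier results of these data known. Named genes are the 10 members, the 4 members of each endothelial list and the 2 of each other list with the smallest p-values, and the 5 genes most like the members in profile, of which 1 is not reported here. Gata4, Erg, Fli1, Flt1, Prox1, Ccl21a, Pdpn, Klf6, Cavin2, Alb, Cd163, Clec4f, Pf4, Cd3d, Cd8a, Nkg7 and Ncr1 fall outside that rule. Lists on other cell types are given mainly by counts. No pair of libraries was a duplicate.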

Additional observations from a re-analysis of the deposited data

How the results depend on the processing

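Over the 15 alternatives, edgeR, limma-voom and DESeq2 included, no member was called in 13, and 1 member, Plvap, was called with no filter beyond 1 count and in DESeq2. Among all genes the main count of 13 was 0 with library totals only, 0 with at least 50 counts in 3 libraries, 0 without robust estimation, 747 with no filter beyond 1 count, 844 in DESeq2 and 0 to 4 with a library left out; the unadjusted counts in the 3 settings at 0 were 2254, 2786 and 3133. The cause was not tested, beyond the smaller number of samples where a library was left out. With the replicate block 23 genes and 0 members were called. Same-numbered libraries did not deviate together (r = -0.055, 0.043 and 0.075 over genes), so the numbers were not taken as pairs.

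With a library left out, the median log2 fold change was 0.12 to 0.39 for the members, 0.052 to 0.29 for the 5 sinusoidal members and 0.19 to 0.54 for the 5 vascular members. Fold changes near 0 turned sign. With library totals only, Stab1 was at 0.091 and Cdh5 at 0.12, both below the median of 0.13 over all genes in that fit. With a library left out, Stab1 ran from -0.21 to 0.017, Cdh5 from -0.24 to 0.13, Clec4g from -0.12 to 0.27 and Oit3 from -0.013 to 0.50. Srm ran from -0.014 to 0.17, with -0.011 without AL/NP replicate 3, and Epb41l1 from -0.0032 to 0.21. Over these alternatives 26 values of named genes passed the threshold that had not. No named gene passed it in the main fit, so none could be lost. Counting error of the members was at most 9.21%.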
